A study of Mus musculus with 12 samples.

Results

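The 5 genes described here act in the first steps by which a β cell senses glucose: the glucose transporter genes Slc2a1 and Slc2a2, the glucose-6-phosphatase gene G6pc2, and the ATP-sensitive potassium (KATP) channel genes Abcc8 and Kcnj11. They were found by gene name, each on 1 row, among the 54022 rows of a gene count table and an FPKM table of MIN6 cells, and all 5 passed the filter on low counts that kept 16222 genes. MIN6 is a mouse insulinoma line that makes and secretes insulin, and the labels give its genotype as WT in all 12 libraries. The 4 conditions, with 3 biological replicates each, were low glucose with vehicle, low glucose with trimethylamine N-oxide (TMAO, 100 nM for 18 h), high glucose with vehicle, and high glucose with TMAO at the same dose and time. TMAO is a metabolite that the liver makes from trimethylamine, a product of gut bacteria, and the study asked how it acts on insulin secretion. All libraries came from 1 tumour-derived line, so no other islet cell was in the cultures by design, and how long the sequenced cells were kept at either glucose level is not given in the sources used here, which time that step for the secretion assay.

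Glucose enters the β cell through facilitative transporters of the SLC2A (GLUT) family, of which SLC2A2 (GLUT2) is the classical one of rodent β cells and SLC2A1 (GLUT1) is found in many other tissues. Inside the cell glucose is phosphorylated, and G6PC2, an islet protein of the endoplasmic reticulum, turns glucose 6-phosphate back into glucose and so works against that step. Metabolism of glucose raises ATP, which closes the KATP channel of the plasma membrane. The pore of that channel is made by KCNJ11, and ABCC8 is the sulphonylurea receptor that regulates it. Closure depolarises the membrane, calcium enters through voltage-gated channels, and insulin granules are released.

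Levels are given as FPKM, the fragment count of a gene scaled by its length and by the library total, which allows 1 gene to be set against another. G6pc2 was the highest of the 5 genes by far, with a mean of 509 FPKM over the 12 libraries and a range of 449 to 548, which placed it at rank 34 among the 16222 tested genes. Abcc8 came next at 122 FPKM (114 to 134, rank 300). Kcnj11 stood at 72.3 FPKM (67.8 to 79.9, rank 661) and Slc2a2 at 67.1 FPKM (62.6 to 72.6, rank 733). Slc2a1 was the lowest at 4.88 FPKM (4.18 to 5.75, rank 8358). Neighbours in this order did not overlap over the 12 libraries except Kcnj11 and Slc2a2, whose ranges did, and Kcnj11 was the higher of that pair in 10 of the 12. So the β-cell transporter gene Slc2a2 had a mean level 13.7 times that of Slc2a1, and the regulatory subunit gene Abcc8 one 1.69 times that of the pore gene Kcnj11. Behind these levels stood 16601 to 23303 counts per library for G6pc2, 16114 to 22293 for Abcc8, 6717 to 8630 for Slc2a2, 4378 to 5753 for Kcnj11 and 260 to 394 for Slc2a1, whose values are therefore the least precise.

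**Figure D1:**
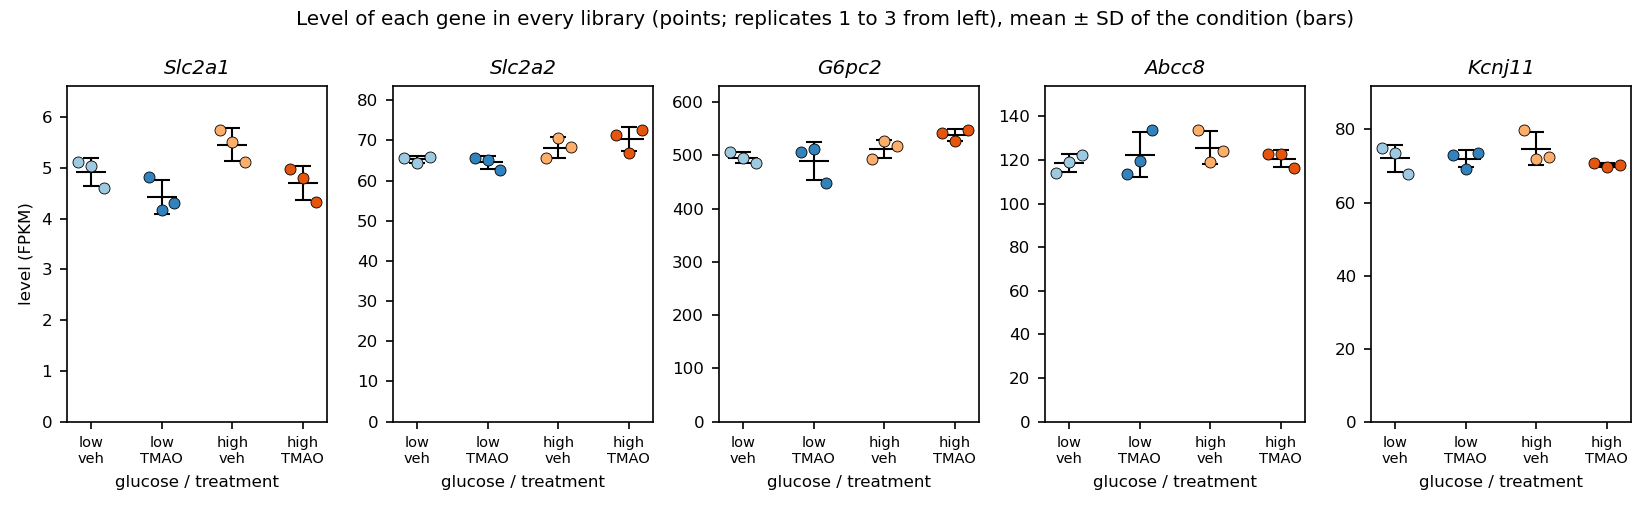
FPKM of the 5 genes in every library, with points for the 3 replicates of each condition and bars for the mean ± SD; each panel has its own axis that starts at 0. The panels run from 4.18 to 5.75 FPKM for Slc2a1 up to 449 to 548 FPKM for G6pc2, and within each gene the conditions differ by little beside the level itself.

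Slc2a2 (ENSMUSG00000027690) lies on the plus strand at chr3:28697903-28731359, Slc2a1 (ENSMUSG00000028645) on the plus strand at chr4:119108711-119137983 and G6pc2 (ENSMUSG00000005232) on the plus strand at chr2:69211073-69227841. The KATP genes are neighbours on the minus strand of chromosome 7, Kcnj11 (ENSMUSG00000096146) at chr7:46093953-46100764 and Abcc8 (ENSMUSG00000040136) at chr7:46104523-46180033, with 3758 bases and no annotated gene between them. Coordinates are those of the deposited tables on mm10, and they equal those of GENCODE M21 for all 5. The gene length behind each FPKM value was the summed length of its merged exons, 5755 bases for Slc2a2, 3506 for Slc2a1, 1974 for G6pc2, 8090 for Abcc8 and 3677 for Kcnj11. The sources used here do not say whether reads were counted by strand, and without strand the reads of a gene and of an overlapping antisense gene cannot be told apart. Only Gm12868, antisense to Slc2a1, shared exonic bases with 1 of the 5 genes (105 bases, 3.0% of the Slc2a1 exons), and it held a mean of 0.167 counts per library. Gm12867 (antisense) and Mir1957a in Slc2a1, 1700112D23Rik (antisense) in Slc2a2, and Gm45486 (antisense) and Gm45487 in Abcc8 shared no exonic bases with them and had means of 0.25 to 166 counts.

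The promoters of the transporter genes and of G6pc2 are shown because Slc2a2 and G6pc2 had the largest fitted glucose differences in TMAO-treated cells among the 5 genes, while Slc2a1 had the lowest level. The sequences are the 250 bases before the start of the RefSeq transcript (GRCm38.p6, plus strand, 5′ to 3′), which matched 3 of the 5 genes by symbol; Abcc8 and Kcnj11 are named only. Capitals mark every match, on either strand, to 6 motifs. General promoter elements were searched as TATAAA, named the TATA box, as GGGCGG, named the GC box, and as CCAAT. Sites of β-cell factors were searched as CANNTG, the E-box that NEUROD1 and other bHLH factors bind, as TGTTTA, a core of FOXA sites, and as TAATTA, a core of homeodomain sites. No matches overlapped.
Slc2a2, chr3:28697653-28697902: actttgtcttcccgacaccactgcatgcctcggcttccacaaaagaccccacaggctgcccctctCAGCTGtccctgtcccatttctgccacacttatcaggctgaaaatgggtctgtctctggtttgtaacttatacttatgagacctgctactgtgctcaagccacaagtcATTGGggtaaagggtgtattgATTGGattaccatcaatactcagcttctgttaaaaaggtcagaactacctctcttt
G6pc2, chr2:69210823-69211072: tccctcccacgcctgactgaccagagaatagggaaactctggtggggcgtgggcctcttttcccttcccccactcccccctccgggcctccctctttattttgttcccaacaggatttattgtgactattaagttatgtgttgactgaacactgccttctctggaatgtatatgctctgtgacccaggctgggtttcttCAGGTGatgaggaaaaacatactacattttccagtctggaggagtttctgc
Slc2a1, chr4:119108495-119108744: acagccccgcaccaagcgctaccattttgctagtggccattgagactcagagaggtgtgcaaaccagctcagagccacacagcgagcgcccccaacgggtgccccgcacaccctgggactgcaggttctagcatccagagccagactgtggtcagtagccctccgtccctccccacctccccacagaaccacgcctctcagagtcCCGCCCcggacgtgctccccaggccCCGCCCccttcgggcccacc
The Slc2a2 window held 1 E-box, CAGCTG at bases -185 to -180, and 2 CCAAT boxes on the reverse strand at -77 to -73 and -56 to -52. The G6pc2 window held 1 E-box, CAGGTG at -51 to -46, and no other match. Slc2a1, a gene of broad expression, held 2 GC boxes on the reverse strand, at -45 to -40 and -20 to -15. Unlike the windows of Slc2a2 and G6pc2, which end just before the annotated gene, the Slc2a1 window ends at 119108744, past the annotated gene start at 119108711. The box at -20 to -15 thus lies within the annotated gene. The Slc2a1 window was also the richest in G and C, with 66.4% and 13 CpG dinucleotides, against 47.2% and 2 for Slc2a2 and 125 of 250 bases and 3 for G6pc2 (the median over 32851 RefSeq promoter windows of the same length was 52.4% and 6). Such matches are common: 66.2% of the 32851 windows held the E-box letters, 33.8% CCAAT, 32.7% the GC box, 12.4% the TATA box, 12.03% the FOXA core and 4.84% the homeodomain core. G6pc2 has a second RefSeq start, whose window (chr2:69219699-69219948) held 4 E-boxes and none of the other 5 motifs.

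The first question was whether glucose moved these genes. Slc2a2, the β-cell transporter gene, was 6.80% higher in high than in low glucose over both treatments (95% CI 2.32 to 11.5, log2 fold change 0.095, SE 0.030, edgeR adjusted p = 0.0478), and it was the 1 gene of the 5 that rose past the threshold. G6pc2 differed by the same size, 6.80% (95% CI 2.15 to 11.7), with an edgeR adjusted p of 0.0586 that missed it. Slc2a1 was 8.72% higher with a wider interval (-0.26 to 18.5, edgeR adjusted p = 0.267). The KATP genes had the smallest differences of the 5: Abcc8 was higher by 2.38% (95% CI -2.88 to 7.93) and Kcnj11 by 0.753% (-3.92 to 5.65). Over all 16222 genes, 1328 (8.19%) were called in this comparison, 670 higher and 658 lower, so 1 called gene in 5 is a share to read against that background, and 20.1% of genes had an unadjusted p under 0.05 against 2 of the 5. Cells were sequenced in bulk, and a lower level could come from fewer cells that express a gene or from less of its RNA per cell, which these data do not tell apart.

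Slc2a2 stood at 65.6, 64.3 and 65.9 FPKM in low glucose with vehicle and at 65.5, 70.7 and 68.3 FPKM in high glucose with vehicle. The 2 conditions overlapped, since replicate 1 of high glucose lay between the lowest and the highest low-glucose library, and the difference was 4.62% (95% CI -1.53 to 11.2, edgeR adjusted p = 0.574). With TMAO the gene stood at 65.7, 65.1 and 62.6 FPKM in low glucose and at 71.3, 66.9 and 72.6 FPKM in high glucose. Here the libraries did not overlap, and the fitted difference was 9.03% (95% CI 2.62 to 15.8), but the edgeR adjusted p over all genes was 0.118.

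The call of Slc2a2 over both treatments was close to the threshold. It held with 3 of 6 other analyses (edgeR adjusted p 0.0272 to 0.0457 and DESeq2 adjusted p 0.0300) and was lost with no filter on low counts (edgeR adjusted p = 0.110) and with limma on FPKM (adjusted p 0.0891 and 0.0894). When each of the 12 libraries was left out in turn, it held without low glucose, TMAO replicate 1 (edgeR adjusted p = 0.0496), high glucose, vehicle replicate 1 (0.0200) and high glucose, TMAO replicate 2 (0.0330), while the other 9 gave adjusted p-values up to 0.160. The fitted difference stayed between 0.080 and 0.11 on the log2 scale in all 18 of these analyses.

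G6pc2, which turns glucose 6-phosphate back into glucose, stood at 506, 496 and 485 FPKM in low glucose with vehicle and at 493, 526 and 517 FPKM in high glucose with vehicle. These ranges overlapped, and the difference was 3.56% (95% CI -2.75 to 10.3, edgeR adjusted p = 0.714). In TMAO-treated cells it stood at 507, 513 and 449 FPKM in low glucose and at 542, 527 and 548 FPKM in high glucose, so that every high-glucose library was above every low-glucose one. The difference was 10.1% (95% CI 3.41 to 17.3, edgeR adjusted p = 0.0851). Replicate 3 of low glucose with TMAO, the lowest G6pc2 value of all 12, set much of it: without that library the log2 fold change fell from 0.14 to 0.080 (edgeR adjusted p = 0.401).

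Slc2a1, the broadly expressed transporter gene, stood at 5.11, 5.04 and 4.60 FPKM in low glucose with vehicle and at 5.75, 5.51 and 5.13 FPKM in high glucose with vehicle. The libraries did not overlap, by a small margin, and the difference of 11.3% had an interval from -1.29 to 25.6 (edgeR adjusted p = 0.461). With TMAO it stood at 4.82, 4.18 and 4.31 FPKM in low and at 4.98, 4.80 and 4.33 FPKM in high glucose, which overlapped (6.17%, 95% CI -6.17 to 20.1, edgeR adjusted p = 0.726).

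Abcc8, the regulatory subunit of the KATP channel, stood at 114, 119 and 122 FPKM in low glucose with vehicle and at 134, 119 and 124 FPKM in high glucose with vehicle (6.20%, 95% CI -1.43 to 14.4, edgeR adjusted p = 0.530). With TMAO the values were 114, 120 and 134 FPKM in low and 123, 123 and 116 FPKM in high glucose (-1.29%, 95% CI -8.39 to 6.35, edgeR adjusted p = 0.921). Both pairs of conditions overlapped. Kcnj11, the pore subunit, stood at 74.9, 73.5 and 67.8 FPKM in low glucose with vehicle and at 79.9, 71.9 and 72.3 FPKM in high glucose with vehicle (3.82%, 95% CI -2.92 to 11.02, edgeR adjusted p = 0.713). With TMAO its values were 73.1, 69.3 and 73.5 FPKM in low and 70.8, 69.8 and 70.3 FPKM in high glucose (-2.22%, 95% CI -8.57 to 4.57, edgeR adjusted p = 0.825). These ranges overlapped too. High glucose, vehicle replicate 1 held the highest Kcnj11 value and set much of the difference with vehicle: without it the log2 fold changes with vehicle went from 0.054 to 0.0028 for Kcnj11 and from 0.087 to 0.039 for Abcc8.

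By count, 0 of the 5 genes were called between high and low glucose with vehicle, where 536 genes (3.30%) were called in all, 323 higher and 213 lower, and 0 of the 5 had an unadjusted p under 0.05, against 13.0% of all genes. With TMAO, 0 of the 5 were called against 591 (3.64%), 325 higher and 266 lower in edgeR and 231 higher and 116 lower among the 347 that limma called on log2(FPKM + 1). In that comparison Slc2a2 and G6pc2 had an unadjusted p under 0.05, against 14.7% of all genes. The libraries of high and low glucose did not overlap for 1 of the 5 genes with vehicle and for 2 with TMAO, against 18.9% and 18.6% of all tested genes. Other genes differed far more between the glucose levels: Egr1, an immediate-early transcription factor gene, stood at 3.73 to 4.09 FPKM in low and at 22.2 to 23.9 FPKM in high glucose with vehicle.

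**Figure D2:**
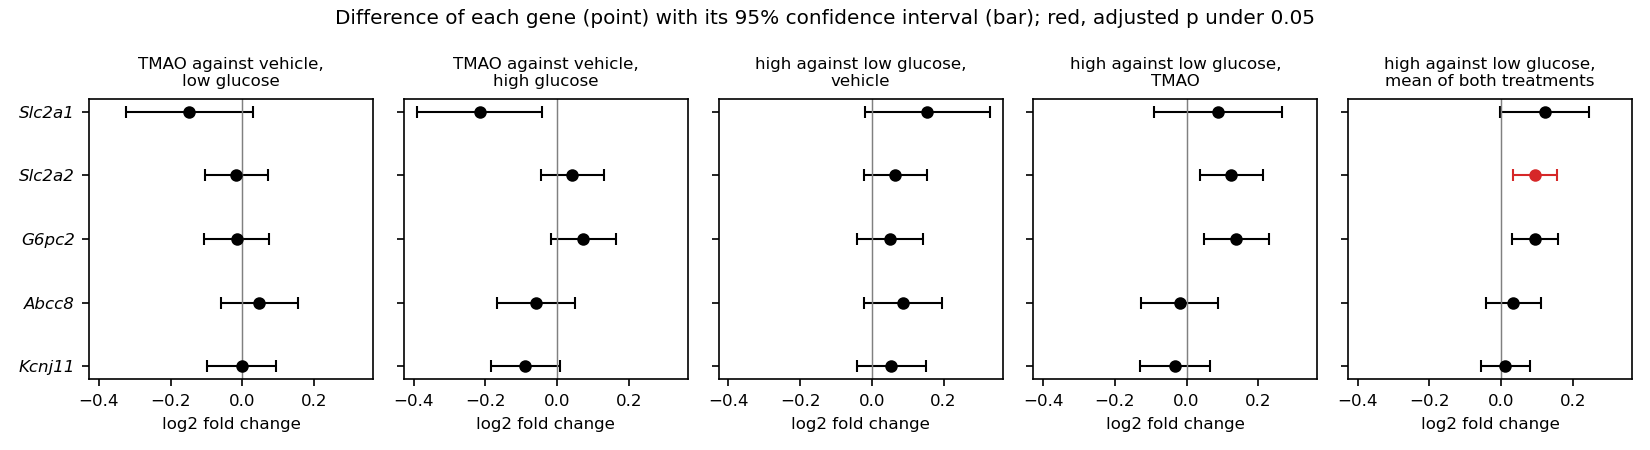
Log2 fold change (points) and 95% confidence interval (bars) of the 5 genes in 5 comparisons, with red for an adjusted p under 0.05. Slc2a2 over both treatments, at 0.095, is the 1 red point, and the widest intervals are those of Slc2a1.

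The second question was whether TMAO moved these genes. In low glucose the 5 genes differed between TMAO and vehicle by -9.75% for Slc2a1 (95% CI -20.2 to 2.04), -1.16% for Slc2a2 (-6.97 to 5.01), -1.13% for G6pc2 (-7.16 to 5.30), 3.29% for Abcc8 (-4.13 to 11.3) and -0.146% for Kcnj11 (-6.62 to 6.78). None was called (edgeR adjusted p = 1 for each), none had an unadjusted p under 0.05, and the libraries overlapped for all 5. In the whole table edgeR called 1 gene (0.00616%), Egr1, which was 43.4% higher with TMAO (95% CI 28.9 to 59.5, edgeR adjusted p = 0.00207). That call was not kept in every analysis: limma on FPKM called 0 genes, and fits that left out 1 library called 0 to 1. Before adjustment, 2.20% of genes had a p under 0.05, and the libraries of 6.34% did not overlap. The same library as above bore on these values: without low glucose, TMAO replicate 3, which held the lowest Slc2a2 and G6pc2 values of all 12 libraries and a high Abcc8 value, the log2 fold changes changed sign, to 0.0025 for Slc2a2, 0.041 for G6pc2 and -0.023 for Abcc8.

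In high glucose, TMAO was compared with vehicle at the level at which β cells secrete. Slc2a1 was 13.9% lower (log2 fold change -0.22, SE 0.086, 95% CI for the percentage -23.8 to -2.84), with all 3 TMAO libraries (4.98, 4.80 and 4.33 FPKM) under all 3 vehicle libraries (5.75, 5.51 and 5.13 FPKM). Its edgeR adjusted p was 0.910, so it did not pass the test over all genes. Kcnj11 was 5.95% lower (95% CI -12.1 to 0.576, edgeR adjusted p = 0.910), again with no overlap, the TMAO libraries lying between 69.8 and 70.8 FPKM and the vehicle libraries between 71.9 and 79.9 FPKM. G6pc2 was 5.14% higher (95% CI -1.27 to 11.97, edgeR adjusted p = 0.921), and its highest vehicle library at 526.5 FPKM fell just short of its lowest TMAO library at 526.6 FPKM. Slc2a2 was 3.01% higher (95% CI -3.05 to 9.44) and Abcc8 differed by -3.999% (95% CI -10.9 to 3.44), both with overlapping libraries. High glucose, vehicle replicate 1 bore on these values: it held the highest Kcnj11 level, 79.9 FPKM, where the other two vehicle libraries stood at 71.9 and 72.3 FPKM, and without it the log2 fold changes went from -0.089 to -0.036 for Kcnj11, from 0.072 to 0.047 for G6pc2, from 0.043 to 0.017 for Slc2a2 and from -0.059 to -0.0096 for Abcc8. Without high glucose, TMAO replicate 3 they were 0.018 for Slc2a2 and -0.034 for Abcc8.

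Thus 3 of the 5 genes had TMAO and vehicle libraries in high glucose that did not overlap, 2 lower and 1 higher with TMAO, against 11.2% of all tested genes, but 0 of the 5 and 0 of 16222 genes (0%) were called. Before adjustment, edgeR gave a p under 0.05 for 868 genes (5.35%), and Slc2a1 was the 1 of the 5 among them. DESeq2 called 3 genes in this comparison, none of them among the 5. Over both glucose levels Slc2a1 was 11.9% lower with TMAO (log2 fold change -0.18, SE 0.061, 95% CI -0.31 to -0.058), and was the only 1 of the 5 with an unadjusted p under 0.05, against 588 genes (3.62%). Its edgeR adjusted p was 1, and 0 genes (0%) were called by edgeR and 2 by DESeq2. The other 4 genes differed by -3.09% (Kcnj11) to 1.96% (G6pc2) over both glucose levels, and the outermost bounds of their intervals were -7.58% and 6.60%.

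The third comparison asked whether the glucose difference itself depended on TMAO. The interaction was 0.060 on the log2 scale for Slc2a2 (95% CI -0.064 to 0.18), 0.089 for G6pc2 (-0.040 to 0.22), -0.068 for Slc2a1 (-0.32 to 0.18), -0.11 for Abcc8 (-0.26 to 0.047) and -0.086 for Kcnj11 (-0.22 to 0.050). None of the 5 was called (edgeR adjusted p = 1) and none had an unadjusted p under 0.05, against 545 genes (3.36%), while 0 genes (0%) were called by edgeR and 1 by DESeq2. The non-overlapping libraries of Slc2a2 and G6pc2 with TMAO, set beside overlapping ones with vehicle, were therefore not shown to differ between the treatments. Single libraries moved all 5 interactions by over 1.5 times, with none called. Without low glucose, TMAO replicate 3 the interaction was 0.031 for G6pc2 and -0.036 for Abcc8. Without high glucose, vehicle replicate 1 it was 0.033 for Slc2a2 and -0.034 for Kcnj11, and without low glucose, TMAO replicate 1 it was -0.0049 for Slc2a1.

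The KATP subunit genes Abcc8 and Kcnj11 had a Pearson's r of 0.37 over the 12 libraries, from log2 counts scaled by library size. The ratio of Abcc8 over Kcnj11 in FPKM ranged from 1.52 to 1.82 over the 12 libraries. It was 1.65 ± 0.14 (SD, n = 3) in low glucose with vehicle, 1.70 ± 0.13 in low glucose with TMAO, 1.68 ± 0.029 in high glucose with vehicle and 1.72 ± 0.056 in high glucose with TMAO. Slc2a2 over Slc2a1 was 13.3 ± 0.88, 14.6 ± 0.97, 12.5 ± 1.0 and 15.01 ± 1.5 in the same order, and G6pc2 over Slc2a2 was 7.59 ± 0.20, 7.59 ± 0.37, 7.51 ± 0.060 and 7.67 ± 0.18. These ratios are descriptions and were not tested between conditions; Slc2a2 over Slc2a1 had the lowest mean where Slc2a1 was highest, in high glucose with vehicle.

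Of 15 listed glucose transporter genes, 9 passed the filter on low counts. Slc2a2 led the list, followed by Slc2a5, the fructose transporter gene, at 51.5 FPKM and Slc2a8, a transporter of internal membranes, at 6.61 FPKM. Slc2a1 was the fourth. Between high and low glucose over both treatments 1 of the 9 was called, Slc2a2, where 8.19% of all genes were called, and the median log2 fold change of the 9 was 0.051 against 0.0011 over all genes. With TMAO 8 of the 9 had negative log2 fold changes in low glucose and 8 of the 9 in high glucose, with medians of -0.11 and -0.14 against 0.0011 and 0.00039 over all genes. The exception was Slc2a8 in low glucose (0.084) and Slc2a2 in high glucose (0.043), and the least abundant of the 9 held 12 to 37 counts per library. In either comparison 0 of the 9 were called by edgeR (0 and 1 with an unadjusted p under 0.05, against 2.20% and 5.35% of all genes).

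**Figure D3:**
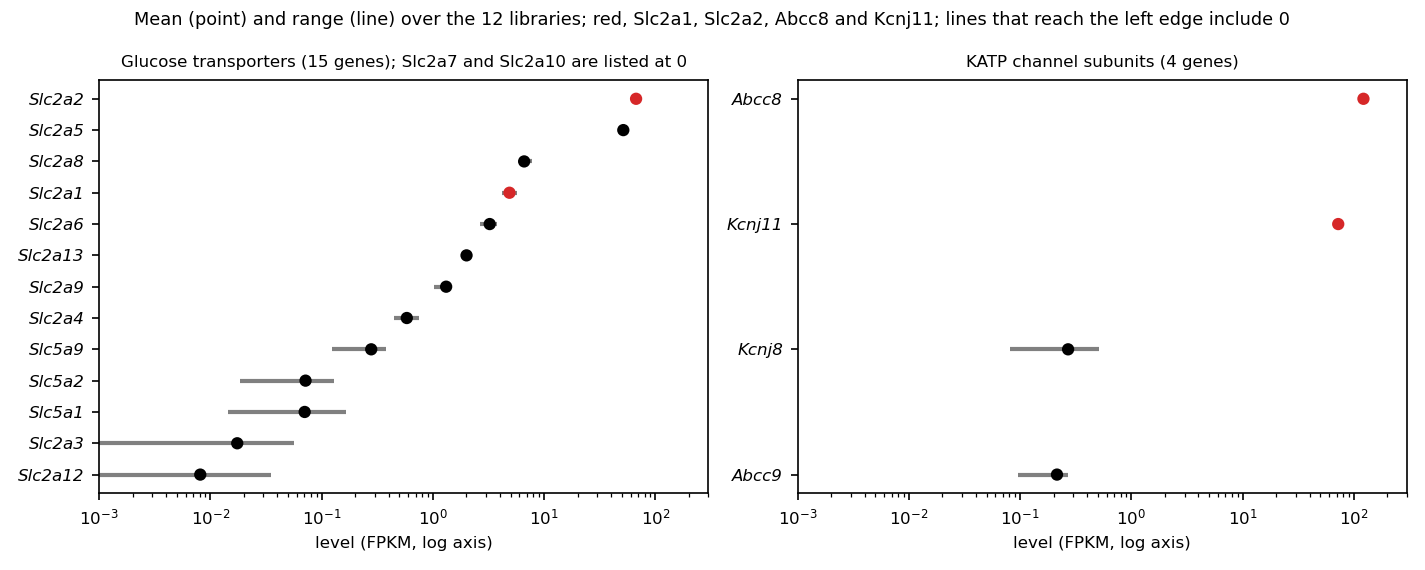
FPKM on a log axis of the listed glucose transporter genes and KATP channel subunit genes, with points for the mean and lines for the range over the 12 libraries. Slc2a2 at 67.1 and Slc2a5 at 51.5 FPKM stand above the other transporter genes, and Abcc8 at 122 and Kcnj11 at 72.3 FPKM above Kcnj8 at 0.270 and Abcc9 at 0.214 FPKM.

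The other subunits that can form KATP channels in muscle and vessels, Kcnj8 (a pore gene) and Abcc9 (a sulphonylurea receptor gene), had means of 0.270 and 0.214 FPKM. Kcnj8 was called higher in high glucose over both treatments (log2 fold change 1.28, SE 0.30, edgeR adjusted p = 0.00521), with 14, 10 and 5 counts in low glucose with vehicle, 8, 4 and 5 in low glucose with TMAO, 15, 11 and 20 in high glucose with vehicle and 22, 19 and 20 in high glucose with TMAO. The TMAO libraries did not overlap and were called (log2 fold change 1.87, SE 0.44, edgeR adjusted p = 0.0101; 0.0567 without high glucose, TMAO replicate 1), while the vehicle libraries overlapped. The mean FPKM of Kcnj11 was 268 times that of Kcnj8, and on log2(FPKM + 1), where the added 1 exceeds its level, its log2 fold changes were 0.25 over both treatments and 0.36 with TMAO. Abcc9 was not called in any comparison.

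Among 16 genes of glucose and glucose 6-phosphate interconversion, 12 were tested and G6pc2 was the highest. Gpi1, which turns glucose 6-phosphate into fructose 6-phosphate, followed at 40.7 FPKM and Slc37a4, the carrier that brings glucose 6-phosphate into the endoplasmic reticulum, at 30.0 FPKM. Adpgk, an ADP-dependent sugar kinase gene, was the 1 gene of the 12 called, a share near the 8.19% of all genes called over both treatments. It was higher in high glucose over both treatments (log2 fold change 0.32, SE 0.050, edgeR adjusted p = 3.42e-05), with vehicle (0.30, SE 0.071, edgeR adjusted p = 0.0103) and with TMAO (0.34, SE 0.070, edgeR adjusted p = 0.0031). Its libraries lay at 3.68 to 3.94 FPKM in low and 4.44 to 5.25 FPKM in high glucose with vehicle. The call with vehicle was lost without low glucose, vehicle replicate 1 (edgeR adjusted p = 0.0724) or high glucose, vehicle replicate 3 (0.175). With limma on FPKM the calls within vehicle and within TMAO were both lost (limma adjusted p up to 0.106 and 0.0599), and the call over both treatments was kept in all 6 alternatives that use the 12 libraries (other tests, scalings and filters). The median log2 fold change of the 12 genes over both treatments was 0.010.

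Downstream of KATP closure, 23 genes of calcium, potassium, sodium and other cation channels were listed and 20 tested. The highest were the calcium channel genes Cacnb3 (45.1 FPKM) and Cacna1c (29.5 FPKM) and the potassium channel gene Kcnh2 (27.5 FPKM). Kcnh2 was called lower in high glucose with TMAO (log2 fold change -0.24, SE 0.058, edgeR adjusted p = 0.0127; lost in 3 of 6 fits that left out 1 library, with adjusted p up to 0.0793) and over both treatments (-0.14, SE 0.041, edgeR adjusted p = 0.0283; lost in 8 of 12, up to 0.0940 without high glucose, vehicle replicate 2), and both calls were lost with limma on FPKM (limma adjusted p up to 0.0888 and 0.0969). The other 19 were not called, where 8.19% of all genes were called over both treatments and 3.64% with TMAO, and the median of the 20 was -0.0048 over both treatments. Between TMAO and vehicle, edgeR called 0 of the 12 interconversion genes, 0 of the 4 KATP subunit genes and 0 of the 20 channel genes at either glucose level, where 0.00616% of all genes were called in low and 0% in high glucose. An unadjusted p under 0.05 was given to 2 of the channel genes, both in high glucose, against 2.20% of all genes in low and 5.35% in high glucose.

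Of 15 transcription factor genes known to act on β-cell genes and tested here, 4 were called higher and 1 lower in high glucose over both treatments and 10 were not called, where 8.19% of all genes were called. Their median log2 fold change was 0.074, against 0.095 for the 5 genes and 0.0011 over all genes. Neurod1, a bHLH factor of insulin and other β-cell genes, was 50.2% higher (log2 fold change 0.59, SE 0.031, edgeR adjusted p = 3.68e-15), from 81.9 to 85.4 FPKM in low to 119 to 132 FPKM in high glucose with vehicle. Mafa, which activates the insulin genes, was 45.9% higher (0.54, SE 0.079, edgeR adjusted p = 0.00264) and Nkx2-2, a homeodomain factor of β-cell identity, 16.04% higher (0.21, SE 0.032, edgeR adjusted p = 1.45e-05). Isl1 was 7.70% higher (0.11, SE 0.033, edgeR adjusted p = 0.0360), a call that was lost in 7 of the 12 fits that left out 1 library, up to 0.113 without high glucose, TMAO replicate 2, and in 3 of the 6 alternatives that use all libraries, up to 0.0867 with no filter on low counts. Mnx1 was 21.3% lower (a difference of -21.3%, log2 fold change -0.35, SE 0.051, edgeR adjusted p = 1.93e-05).

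The calls of Neurod1, Mafa, Nkx2-2 and Mnx1 over both treatments held in all 12 fits that left out 1 library and in all 6 alternatives. Within vehicle the calls were Neurod1, Mafa, Nkx2-2 and Mnx1 (edgeR adjusted p 4.62e-11, 0.0126, 0.000177 and 0.0353), where 3.30% of all genes were called. Of the 6 fits that left out 1 library, Mafa lost its call in 3 (adjusted p up to 0.0582) and Mnx1 in 5 (up to 0.285), both highest without high glucose, vehicle replicate 3, and Mnx1 also lost it with limma on FPKM (limma adjusted p up to 0.115). Within TMAO the calls included Neurod1, Mnx1 and Nkx2-2 (edgeR adjusted p 3.04e-11, 0.000325 and 0.0393), where 3.64% of all genes were called. Nkx2-2 lost this call in all 6 fits that left out 1 library (adjusted p 0.0571 to 0.158) and in 3 of the 6 alternatives (up to 0.0816). Pdx1 (187 FPKM), a known activator of Slc2a2, had a log2 fold change of 0.074 over both treatments (edgeR adjusted p = 0.134) and Nkx6-1 (163 FPKM) one of -0.12 (edgeR adjusted p = 0.112). For TMAO, edgeR called 0 of the 15 at either glucose level (1 in low and 3 in high glucose had an unadjusted p under 0.05, against 2.20% and 5.35% of all genes).

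**Figure D4:**
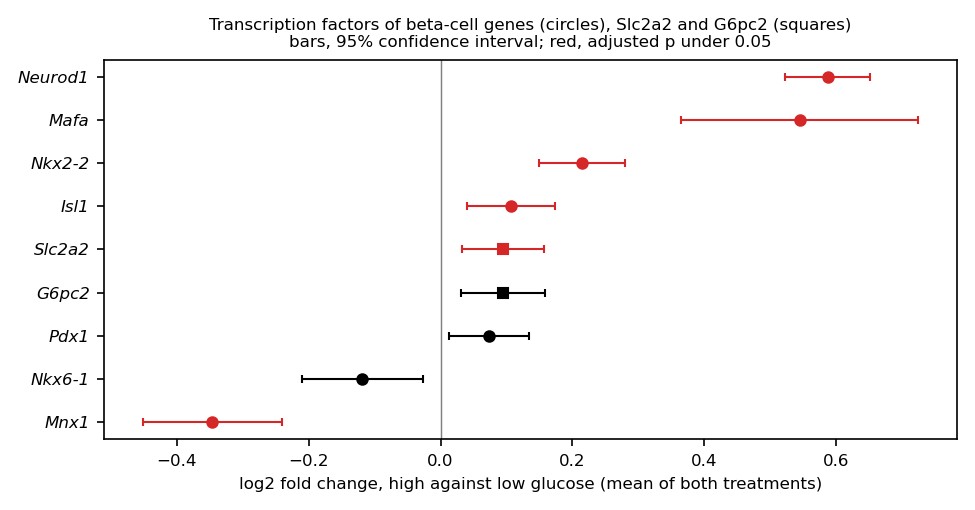
Log2 fold change between high and low glucose over both treatments (points, with 95% confidence intervals as bars) for the 7 transcription factor genes named in the text (circles), Slc2a2 and G6pc2 (squares), with red for an adjusted p under 0.05. Neurod1 at 0.59 and Mafa at 0.54 lie to the right, Mnx1 at -0.35 to the left, and Slc2a2 and G6pc2 at 0.095 each lie between.

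For each of the 5 genes, the genes with the most similar pattern over the 12 libraries were listed by Pearson's r of log2 counts scaled by TMM library sizes, among 12304 tested genes with a mean of at least 50 counts; the libraries share depth and handling, and the r values are descriptions. For Slc2a2 they were Degs1 (r = 0.944), Gabarapl2 (0.942) and Amd1 (0.937), and for G6pc2 Cd164 (0.972), Hspd1 (0.962) and Tmem27 (0.956). Abcc8 was closest to Mroh1 (0.976), Smarcc2 (0.971) and Fanca (0.969), and Kcnj11 to Ube2s (0.959), Cpe (0.928) and Clstn1 (0.913). Slc2a1, with the fewest counts, had the lowest values, 0.858 for Frat1, 0.858 for Phf5a and 0.841 for Psen2. The 5 genes were not themselves candidates for these lists, and no list shared a gene with another. The top 1% of candidates began at an r of 0.681 for Slc2a1, 0.811 for Slc2a2, 0.838 for G6pc2, 0.858 for Abcc8 and 0.781 for Kcnj11. Of the pairs among the 5 genes, Slc2a2 with G6pc2 had the highest r, 0.861.

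The β-cell label fitted the markers. All 10 β-cell marker genes were present, and their summed level was 41166 to 46832 FPKM in low and 45542 to 48677 FPKM in high glucose, led by Ins2 (25489 FPKM), Iapp (12107 FPKM) and Ins1 (4666 FPKM). Of these 3, Iapp was called higher in high glucose over both treatments (log2 fold change 0.092, SE 0.029, edgeR adjusted p = 0.0413; lost in 9 of 12 fits that left out 1 library, up to 0.139 without low glucose, vehicle replicate 3, and with limma on FPKM, limma adjusted p up to 0.114). The α-cell list held 1 abundant gene, Gcg, at 216 FPKM, which was also called higher in high glucose (0.11, SE 0.029, edgeR adjusted p = 0.0102); the α-cell list summed to 200 to 216 FPKM in low and 222 to 228 FPKM in high glucose, with Irx2 at 0.159 FPKM. The other lists were near 0: δ-cell (Sst, 1.39 FPKM; Hhex at 0) at most 2.11 FPKM, acinar (Cela1, 0.962 FPKM) at most 1.49, ductal at most 1.69, fibroblast (Col1a1, 0.403 FPKM) at most 0.534, endothelial at most 0.131 and PP-cell at most 0.119 FPKM. The macrophage list summed to 2.88 to 3.62 FPKM in low glucose with vehicle and 3.87 to 4.84 FPKM in the other conditions, all of it Cd68 (4.04 FPKM), a lysosomal gene, with Ptprc and Adgre1 at 0. The α-cell sum did not overlap between the glucose levels and the β-cell sum did, and their part in the glucose differences of Slc2a2 and G6pc2 was not tested. Totals were 16793162 to 22340542 counts per library.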

How the data were processed

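RNA was extracted from MIN6 cells with TRIzol, and libraries were made with a NEBNext Ultra kit after poly-T selection (1 µg of RNA per sample in the labels). The submitters' processing notes name HISAT2 2.0.5, featureCounts 1.5.0-p3, DESeq2 1.16.1 and mm10, and the counting by strand and the annotation release are not given in the sources used here. Low glucose was 2.8 mM and high glucose 16.8 mM in the study's methods. The authors deposited a table of raw counts per gene and a table of FPKM values, and within each library the deposited FPKM values were proportional to the count divided by gene length within 0.1%, with a scale of 0.998 to 1.01 times the library total. Totals were 16793162 to 22340542 counts per library, so that the floor of 3 counts is 1.79e-05% of the smallest library (counting error only).

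The counts were fitted with edgeR 4.0.16 under R 4.3.3 (filterByExpr by condition, TMM, robust quasi-likelihood F test) on all 12 libraries in 1 model of the 4 condition means. The contrasts were TMAO against vehicle and high against low glucose, each within both levels of the other factor and as their mean, and the interaction. P-values were adjusted by Benjamini-Hochberg over 16222 genes, and a gene was called under 0.05. The SE is the size of the log2 fold change divided by the square root of F, and 95% intervals use the test's degrees of freedom. Groups came from the sample titles; the design text calls the 3 libraries of a condition biological replicates. No pair of the 12 replicate pairs was as alike as draws from 1 library (median chi-square 1.80 to 3.55 times that of such draws).

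The 5 genes and the gene lists were chosen with earlier results of these data known. Named from the lists were genes called in any comparison and the 3 of each list with the highest mean FPKM, and, for each of the 5 genes, the 3 genes with the closest pattern and those that overlap it; the plot of family levels shows whole lists, and Egr1, Abcc9 and the listed genes at 0 counts were named after their values were seen. Promoters came from RefSeq (GRCm38.p6). The steps were tested on simulated counts. Alternatives were the Wald test of DESeq2 1.42.0, its size factors in edgeR, no filter on low counts, a replicate block, limma-trend (limma 3.58.1) on FPKM with a pseudocount of 1 or 0.1 before log2, and leaving out every library in turn; those for list genes were added after the data were seen. The pseudocount understates the limma fold changes of low genes. Some genes of the pathway and of the lists are not reported here. Plots were made in Python 3.11.15 (matplotlib 3.10.9).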

Additional observations from a re-analysis of the deposited data

How the results depend on the processing

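The fitted differences of the 5 genes kept their direction under the 6 alternatives that use all 12 libraries, and none moved by more than 0.036 on the log2 scale; of the 42 results (6 for each of the 7 comparisons) the ones below changed. DESeq2 called 3 genes for TMAO in high glucose, 2 for TMAO over both glucose levels and 1 for the interaction. With no filter on low counts, where more genes are tested, 7, 13 and 9 genes were called for TMAO in low glucose, in high glucose and over both and 6 for the interaction, and Slc2a2 over both treatments stood at 0.088, no longer called. With limma on FPKM 0 genes were called for TMAO in low glucose with either pseudocount, 347 and 337 for glucose with TMAO, and Slc2a2 stood at 0.092 and 0.093, no longer called. For the counts and for limma the cause was not tested.

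The replicate numbers of the labels were not used as a pairing in the main fit. Deviations of same-numbered libraries had a mean correlation of 0.030 (18 pairs, -0.036 to 0.20), against -0.015 for libraries with other numbers. Of the 12 libraries, 9 were closest to their own number, and whether same-numbered libraries shared handling was not tested. With the replicate block, G6pc2 was called with glucose in TMAO-treated cells (0.14, edgeR adjusted p = 0.0433) and over both treatments (0.096, edgeR adjusted p = 0.0316); it changed no other call of the 5 genes, and the counts of genes called with glucose were 717 with vehicle, 783 with TMAO and 1678 over both.

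With each library left out in turn, counts of called genes ranged from 0 to 1 for TMAO in low glucose, 0 to 1 in high glucose, 0 to 2 over both, 0 to 2 for the interaction, 328 to 475 for glucose with vehicle and 344 to 657 with TMAO; an arm then holds fewer libraries and the spread is pooled over all conditions. Log2 fold changes that changed sign or call ranged, for TMAO in low glucose, from -0.030 to 0.0025 for Slc2a2, -0.051 to 0.041 for G6pc2, -0.023 to 0.098 for Abcc8 and -0.044 to 0.025 for Kcnj11. For TMAO over both glucose levels they ranged from -9.87e-05 to 0.030 for Slc2a2 and -0.041 to 0.020 for Abcc8. For glucose over both treatments they ranged from 0.080 to 0.11 for Slc2a2, 0.064 to 0.11 for G6pc2 (called in 3 of 12) and -0.014 to 0.026 for Kcnj11, and for glucose with TMAO from 0.080 to 0.18 for G6pc2 (called in 1 of 6) and -0.068 to 0.049 for Abcc8. Other values, called in none of these fits, also moved by over 1.5 times. For glucose with vehicle they ranged from 0.037 to 0.093 for Slc2a2, 0.029 to 0.077 for G6pc2, 0.039 to 0.12 for Abcc8 and 0.0028 to 0.082 for Kcnj11. For glucose with TMAO they ranged from 0.047 to 0.15 for Slc2a1 and -0.057 to -0.018 for Kcnj11, for glucose over both treatments from 0.0097 to 0.067 for Abcc8, and for TMAO over both glucose levels from 0.011 to 0.057 for G6pc2 and -0.066 to -0.019 for Kcnj11. Depth limits Slc2a1 most, at 260 to 394 counts per library, and its interval was the widest of the 5 in each of the 7 comparisons.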
